A study of Arabidopsis thaliana with 2 samples.

Results

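The pericentromere of chromosome 3 of Arabidopsis thaliana was described here as the 400 bins of 10 kb whose midpoints lie between 12 and 16 Mb, out of 11916 nuclear bins and 11969 bins in all. The window was set by position with earlier results of these data known, and its rule used no measured value. The counts come from leaf chromatin digested with micrococcal nuclease (MNase), an enzyme that cuts DNA between nucleosomes, so that the sequenced DNA is the part that proteins protected. There was 1 library of the wild type and 1 library of the chr5 genotype, each from untreated leaves of plants grown on plates at 22 °C. The chr5 allele, the accession of the plants and their age were not stated in the labels, and nothing in them says that the groups share another mutation. CHR5 is a chromatin remodelling ATPase of the CHD1 type, a family that moves and spaces nucleosomes. Counts in 10 kb bins cannot show an insertion or a point mutation, so the chr5 label could not be checked on the data.

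Pericentromeres flank the centromere and are packed as heterochromatin, with many transposon remnants, few active genes, methylated DNA and closely packed nucleosomes. Centromeres of Arabidopsis are arrays of a short satellite repeat that genome assemblies hold in part, and rRNA genes exist in long arrays of near-identical copies. Reads from such repeats match many places, so the count of a repeat bin depends on how an aligner places them. Genes were placed in bins with a RefSeq gene table that has no class of transposable elements. Of the 215 protein-coding genes with their midpoint in the region, 36 carried a symbol, and the table listed 682 pseudogenes there. On average 40.5% of a bin lay in annotated pseudogenes and 9.83% in protein-coding genes, against 3.88% and 62.8% in the arms of chromosome 3.

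With 1 library per genotype, no difference below has a replicate check and no test between genotypes was possible. A difference between genotypes and a difference between 2 digestions or library preparations cannot be told apart. Intervals are exact 95% intervals from the counts, and they cover counting error only. Reads that are PCR copies are not independent molecules, and how duplicates were handled is not given. The intervals may therefore be too narrow, and the shares of bins whose interval excludes 1 too high. The nuclear totals were 99392770 counts for the wild type and 102412872 for chr5. Of these, the region held 6222473 and 6246268 counts, with median bins of 10319.5 and 10130.5. Levels are given as multiples of the median nuclear bin of the same library, which held 7926 and 8242 counts.

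The pericentromere had higher counts per bin than the arms in the wild type. How far repeats and the placement of their reads raise these counts was not tested. Its median bin stood at 1.30 times the nuclear median, with quartiles of 0.944 and 1.63, while the arms of chromosome 3 stood at 1.03 with quartiles of 0.809 and 1.22. Of the 400 bins, 288 (72.0%) lay above the nuclear median, against 53.6% of arm bins. In the mutant the median bin of the region stood at 1.23. The other 4 pericentromeres had lower wild-type medians, namely 0.913, 1.16, 1.19 and 1.18 for chromosomes 1, 2, 4 and 5. These medians include bins with a mean count under 0.25 times the nuclear median. There were 66 such bins on chromosome 1, 13, 12 and 17 on chromosomes 2, 4 and 5, and 10 on chromosome 3. The ranges of the 5 overlap widely, and bins are not replicates, so their order describes these libraries.

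**Figure D1:**
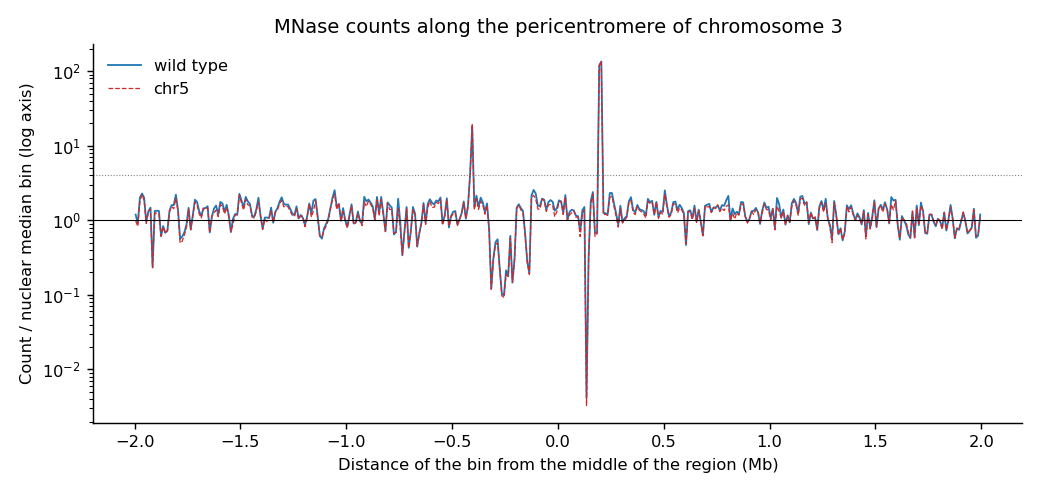
Count of each 10 kb bin as a multiple of the nuclear median bin of its library (log axis) against the distance of the bin from 14 Mb, for the wild type (solid) and chr5 (dashed); the solid horizontal line marks 1 and the dotted line 4. The lines of both libraries lie nearly on each other, with 1 spike of 18.5 left of the middle, a spike of 2 bins reaching 135 right of it, and a trough of low counts between them.

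Very high counts were held by 4 bins, which lay in 2 separate pairs. A bin was called very high when it exceeded 4 times the nuclear median in the wild type. The 4 bins ran from 4.10 to 135 times the nuclear median, and the next bin of the region (13880001 to 13890000) stood at 2.56. They took 35.3% of the region's wild-type counts and 2.21% of all nuclear counts, although the region as a whole makes up 3.36% of the nuclear bins. Of the 8 nuclear bins above 10 times the median, 3 lay here.

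The first pair covers an rRNA locus. The bin at 14190001 to 14200000 holds the rRNA genes AT3G41768 and AT3G41979, whose products are structural RNAs of the ribosome, and gave 946140 wild-type against 983701 chr5 counts. The bin after it (14200001 to 14210000), in which the miscellaneous RNA AT3G06365 covers 39.9% of the length, had 1071576 and 1123610 counts, the highest count of any nuclear bin in the wild type. The 2 bins therefore stood at 119 and 135 times the nuclear median. Their mutant to wild-type folds were 1.009 (1.006 to 1.012) and 1.018 (1.015 to 1.020). The spike was sharp at both edges, with 5365 wild-type counts in the bin before it and 9964 in the bin after it, at folds of 0.990 (0.954 to 1.03) and 0.954 (0.928 to 0.981).

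The second pair lies in a stretch without named genes. The bin at 13590001 to 13600000, with no annotated gene, gave 146760 wild-type against 159222 chr5 counts, at 1.05-fold (1.05 to 1.06). It had rank 5 among all nuclear bins of the wild type, at 18.5 times the median. The bin before it (13580001 to 13590000) holds the pseudogenes AT3G33055 and AT3G33045 and had 32515 and 34279 counts, at 1.02-fold (1.01 to 1.04). The bins on either side of this pair were lower in the mutant, at 0.935 (0.912 to 0.959) before it and 0.920 (0.897 to 0.944) after it. All 4 very high bins were thus above 1 in the mutant, together at 1.016 (1.015 to 1.018), whereas the other 396 bins together were at 0.951 (0.950 to 0.953). Setting the median nuclear bin to 0 on the log2 scale lowers every log2 ratio by 0.015, which takes the bin of AT3G41768 below 1. How reads with several matches were placed is not given in the sources used here, and its part in these counts was not tested.

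Close to the second pair was a trough, the longest run of bins under 0.7 times the nuclear median, a limit set after the values were seen. The 12 bins from 13680001 to 13800000 ranged from 0.0982 to 0.618 times the nuclear median in the wild type, with a median of 0.217, and 9 of them overlap no annotated gene. The 12 bins before the trough had a median of 1.64 and the 12 after it of 1.52, but the latter include 3 more low bins (13840001 to 13870000), at 0.663, 0.280 and 0.195. The trough was present in both libraries, with 26814 wild-type against 26351 chr5 counts, at 0.954-fold (0.938 to 0.970). A lone bin at 14130001 to 14140000, which overlaps the pseudogene AT3G33197, gave 33 wild-type against 27 chr5 counts, a fold of 0.794 with an interval of 0.459 to 1.36. In all, 10 bins of the region were under 0.25 times the nuclear median, 7 of them in the trough, and were left out of the ratios below, which rest on 390 bins. No bin of the region was at 0 in both libraries, against 66 nuclear bins in all. Low counts were not read as a lack of nucleosomes.

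Across the region the share of nuclear counts per bin was lower in the mutant library than in the wild type, by a small amount spread over most bins. The median log2 ratio of mutant to wild type was -0.057 (0.961-fold) with an SD of 0.083 over the 390 bins, against an SD of 0.022 from counting alone. In the arms of chromosome 3 the median was 0.016 with an SD of 0.049 over 1942 bins. The difference of -0.073 corresponds to 0.950-fold. In the region 299 bins (76.7%) were below 0, against 36.3% of arm bins. The exact interval of the fold lay wholly below 1 for 230 of the 390 bins (59.0%) and wholly above 1 for 31 (7.95%), and it held 1 for 129. Among all analysed nuclear bins it lay wholly below 1 for 16.2% and wholly above 1 for 24.6%, and in the arms of chromosome 3 for 10.0% and 23.9%.

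A change of at least 1.1-fold marked 50 bins as lower and 1 bin as higher in the mutant. Among all analysed nuclear bins, 2.65% were lower and 0.81% higher by this rule, and in the region 12.8% and 0.256%. The 50 lower bins ranged from a fold of 0.739 to 0.909. At a change of 25%, taken as the same fold either way, 5 of the 390 analysed bins of the region were lower and 0 higher. Among all 11735 analysed nuclear bins, 21 (0.179%) were lower and 2 (0.017%) higher. Past 1.5-fold there were 0 bins of the region in either direction, against 0.00852% of all analysed nuclear bins each way. The summed counts of the whole region gave a fold of 0.974 (0.973 to 0.975), which is closer to 1 than the median bin, and the 4 very high bins make up 36.8% of the mutant sum.

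**Figure D2:**
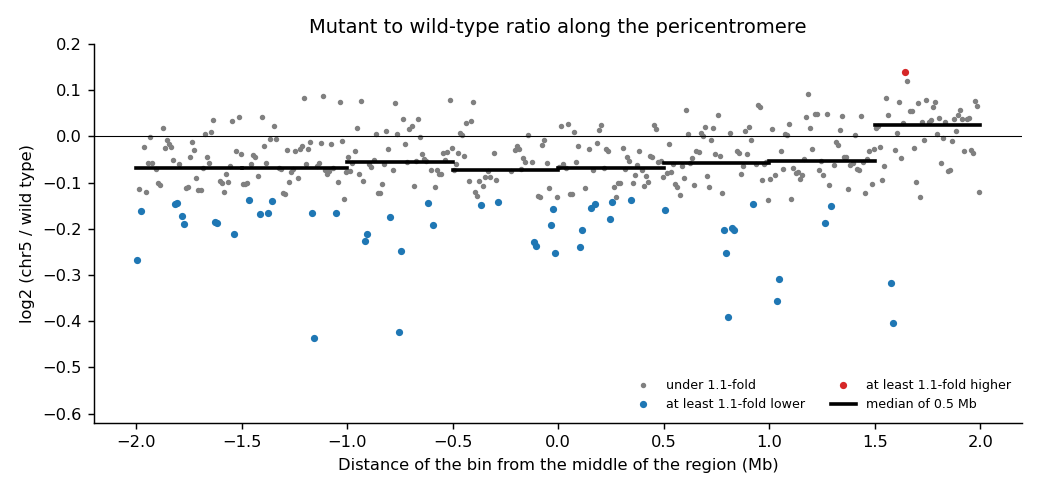
Log2 ratio of chr5 to wild-type scaled counts of each analysed 10 kb bin against its distance from 14 Mb, with the median of each 0.5 Mb as a thick bar. The medians of the first 7 bars lie between -0.074 and -0.054 and that of the last is 0.026; the 50 bins at least 1.1-fold lower are scattered along the region.

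The lower ratio was even along the first 3.5 Mb and ended near 15.5 Mb. In the 7 windows of 0.5 Mb from 12 to 15.5 Mb the median log2 ratio ran from -0.074 (13.5 to 14 Mb) to -0.054 (15 to 15.5 Mb), with 4 to 9 bins per window at least 1.1-fold lower. The window from 15.5 to 16 Mb was at 0.026, with 20 of its 50 bins below 0. Its wild-type level also fell to 0.976 times the nuclear median, from between 1.24 and 1.38 in the 7 other windows. Protein-coding genes took up 26.6% of its length, against 0.889% to 16.7% in the others. The step was sharp at a resolution of 0.25 Mb, from -0.056 at 15.25 to 15.5 Mb to 0.019 at 15.5 to 15.75 Mb. On the other side, the last 0.25 Mb before 12 Mb was at -0.017 and the first 0.25 Mb after it at -0.085. The median was -0.070 over the bins within 0.5 Mb of 14 Mb and -0.059 over the rest of the stretch before 15.5 Mb.

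Neighbouring bins tended to move together. Across 383 pairs of adjacent analysed bins, Pearson's r of the log2 ratio was 0.36 and Spearman's rho 0.35, against 0.12 and 0.13 in the arms over 1936 pairs. These correlations are across bins of the same libraries, which share depth, base composition and neighbours, and they carry no p. Of the 50 bins at least 1.1-fold lower, 30 lay in 14 runs of 2 or 3 adjacent bins and 20 stood alone.

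Pseudogenes led all 12 of the lowest bins, in a region where 337 of the 390 analysed bins hold the midpoint of a pseudogene. Among the 12 with the lowest ratio, 9 had over 50% of their length in pseudogenes, as did 159 of all 390 analysed bins of the region (40.8%). In the wild type 10 of the 12 lay above the nuclear median, as did 288 of the 390 (73.8%). Choosing bins by a low ratio can favour high wild-type counts, since the wild-type count is its divisor. How much this adds here was not tested. The role of these pseudogenes is not given in the gene table. The lowest was the bin of AT3G31530 and AT3G31540 (12840001 to 12850000), with 14647 wild-type against 11146 chr5 counts, at 0.739-fold (0.720 to 0.757). Next was the bin of AT3G32295 and AT3G32290 (13240001 to 13250000), with 15432 and 11862 counts, at 0.746-fold (0.728 to 0.764). The wild-type counts of both were close to 2 times the nuclear median, at 1.85 and 1.95, and their mutant counts were at 1.35 and 1.44.

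Several of the lowest bins formed longer stretches. The pair at 15570001 to 15590000, led by AT3G43675 and AT3G43681, gave 30887 wild-type against 24830 chr5 counts, at 0.780-fold (0.767 to 0.793). It lies beyond 15.5 Mb and held both of the lower bins of that window. The pair at 15030001 to 15050000, led by AT3G42993 and AT3G42996, had 28918 and 23632 counts, at 0.793-fold (0.780 to 0.807). A run of 3 bins at 14780001 to 14810000, which holds AT3G42715 and AT3G42727, had 43998 and 37104 counts, at 0.818-fold (0.807 to 0.830). The low ratio of the bin of AT3G32295 extended into its neighbour, led by AT3G32305, and the pair (13240001 to 13260000) was at 0.777 (0.762 to 0.792). A further run of 3 bins, at 13960001 to 13990000, was at 0.874 (0.861 to 0.886), and it ends in the bin of AT3G33169 and AT3G33166 at 0.839 (0.816 to 0.863). The remaining lowest bins were that of AT3G30393 at the left edge of the region (12000001 to 12010000), at 0.831 (0.806 to 0.856), and that of AT3G33235 (14100001 to 14110000), at 0.847 (0.816 to 0.880). Just beyond these 12 by the same 1.1-fold rule, the pair at 13880001 to 13900000 contains the bin with the highest wild-type level outside the very high ones, and was at 0.851 (0.839 to 0.864).

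The highest bins changed less and were of mixed content. The 12 highest ratios ran from 1.05 to 1.102, and 8 of these bins held protein-coding sequence, against 3 of the 12 lowest and 157 of all 390 analysed bins. Their median wild-type level was 0.876 times the nuclear median, against 1.85 for the 12 lowest. Part of this contrast can come from the choice, since the wild-type count divides the ratio. The highest was the bin of the protein-coding AT3G43740 (15640001 to 15650000), with 6848 wild-type against 7776 chr5 counts, at 1.102-fold (1.07 to 1.14). The bin after it belongs to ZIFL2 (AT3G43790), a transporter gene of the major facilitator superfamily, with 5144 and 5759 counts, and was at 1.09 (1.05 to 1.13). The bin of SUS4 (AT3G43190), a sucrose synthase gene, had 7042 and 7735 counts, at 1.07-fold (1.03 to 1.101). The bin of NAC060 (AT3G44290), a transcription factor gene, was at 1.05 (1.01 to 1.097), and the bins led by the protein-coding AT3G32920, AT3G32047 and AT3G43890 were between 1.05 and 1.06.

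Pseudogene bins were also found among the highest. The bin of AT3G43654 and AT3G43652 (15550001 to 15560000), with 82.7% of its length in pseudogenes, was at 1.06 (1.03 to 1.09), although the lowest pair of that window begins 10 kb after its end. The bin of AT3G31904 (12880001 to 12890000) was at 1.06 (1.02 to 1.11), and lies 30 kb beyond the end of the lowest bin of the region. The bins of AT3G31422 and of AT3G31970 were at 1.06 (1.03 to 1.09) and 1.05 (1.03 to 1.08). The twelfth was the unannotated very high bin at 13590001 to 13600000.

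Gene content and count level both moved with the ratio. Spearman's rho of the ratio over the 390 bins was 0.42 for coverage by protein-coding genes, -0.36 for coverage by pseudogenes and -0.41 for the mean count of both libraries. In the arms of chromosome 3 the same values over 1942 bins were -0.17, -0.12 and -0.36. The bins share library, depth and base composition, so these are descriptions with no p. Gene content also changes along the region. In the window from 15.5 to 16 Mb, at a median of 0.026, protein-coding coverage averaged 26.6% and pseudogene coverage 25.5%. In the 7 other windows these averages ran from 0.889% to 16.7% and from 33.5% to 48.7%. The part of position in these correlations was not tested. The 50 bins at least 1.1-fold lower had a median wild-type level of 1.75 and a median pseudogene coverage of 56.4%, against 1.28 and 42.0% for the other 340. The wild-type count is the divisor of the ratio that chose these bins, so part of the contrast in level can come from the choice. The size of that part was not tested.

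**Figure D3:**
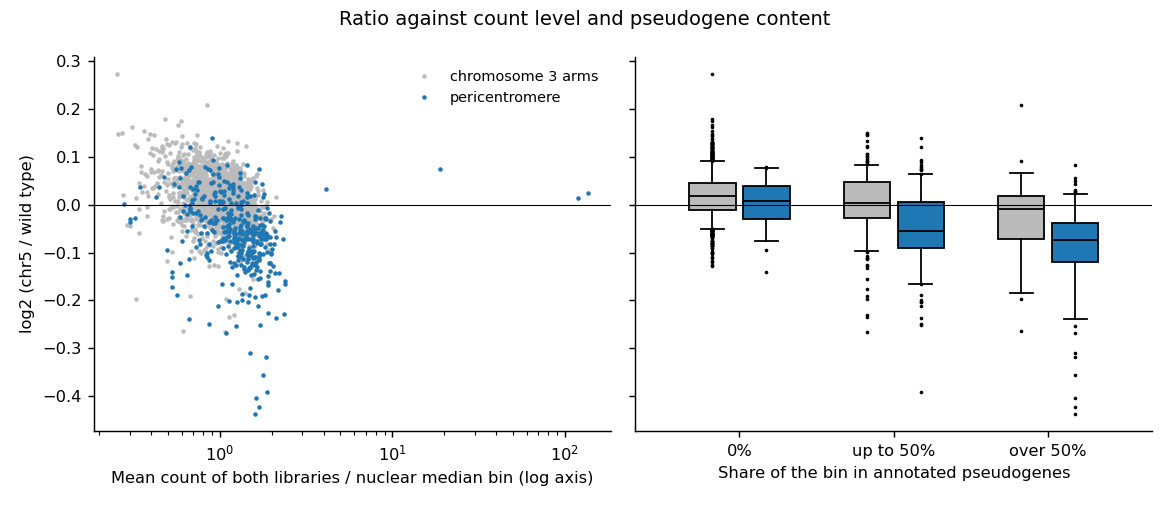
Left, log2 ratio of chr5 to wild type of each analysed bin of the pericentromere (blue) and of the arms of chromosome 3 (grey) against its mean count (log axis). Right, the same ratio by pseudogene coverage of the bin; boxes span the quartiles with the median as a line and whiskers run from the 5th to the 95th percentile. The pericentromere medians go from 0.0073 in bins with no pseudogene to -0.073 in bins with over 50%.

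Within the pericentromere the ratio was lower in gene-poor than in gene-rich bins. In bins with under 25% protein-coding coverage the median log2 ratio was -0.065 for 328 bins of the region and 0.016 for 195 arm bins. Between 25% and 75% it was 0.0040 for 53 bins and 0.024 for 986 arm bins. Above 75% it was 0.023 for 9 bins and 0.0071 for 761 arm bins. By pseudogene coverage, the 40 bins of the region with none were at 0.0073 (arms 0.018), the 191 bins with up to 50% at -0.054 (arms 0.0044) and the 159 bins with more at -0.073 (arms -0.0098, from 39 bins). With the median nuclear bin set to 0, the region's medians of 0.0040 and 0.0073 and the arms' medians of 0.0071 and 0.0044 turn negative. The share of the region's bins at least 1.1-fold lower rose over the 3 pseudogene classes from 2.50% to 9.42% and 19.5%. The 4 other pericentromeres together showed the same order of medians. By protein-coding coverage they were at -0.066, -0.0046 and 0.014, and by pseudogene coverage at 0.019, -0.052 and -0.083. Their median of 0.014 also turns negative with the median nuclear bin set to 0.

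The region also lay below the arms within classes of mean count. When all analysed nuclear bins were put into 10 classes of equal size by mean count, the region lay below the arms of chromosome 3 in each class. The difference ran from -0.016, in the fifth class with 18 bins of the region, to -0.083. In the 8 classes with at least 20 bins of both it was -0.038 or further below 0. The highest class held 143 of the 390 bins, at -0.086 against -0.015 in the arms, and 32 of the 50 bins at least 1.1-fold lower. The 4 other pericentromeres together were at -0.088 in that class. Counts in that class were not fully alike, with a median wild-type level of 1.76 in the region against 1.56 in the arms.

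The bins of well-known protein-coding genes stayed near a fold of 1. Of the 34 bins that hold the 36 protein-coding genes with a symbol, 12 were below 0 on the log2 scale, and their median was 0.017, against -0.062 for the 337 analysed bins that hold a pseudogene midpoint. Over all analysed nuclear bins 38.6% were below 0 and the median was 0.015, so the 34 bins lay near the nuclear background. Position differs as well. The symbol genes from AAO2 to NIT3 in chromosome order lie beyond 15.5 Mb, where the median of all bins was 0.026. Of the 682 pseudogenes, 626 lie before 15.5 Mb. The part of position in the contrast with pseudogene bins was not tested. None of the 34 was 1.1-fold lower or higher, by the rule that marks 2.65% and 0.81% of all analysed nuclear bins. Over all 138 bins with the midpoint of a protein-coding gene the median was -0.023, with 8 bins (5.80%) at least 1.1-fold lower and 1 higher. A bin spans several genes, so these values belong to bins.

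**Figure D4:**
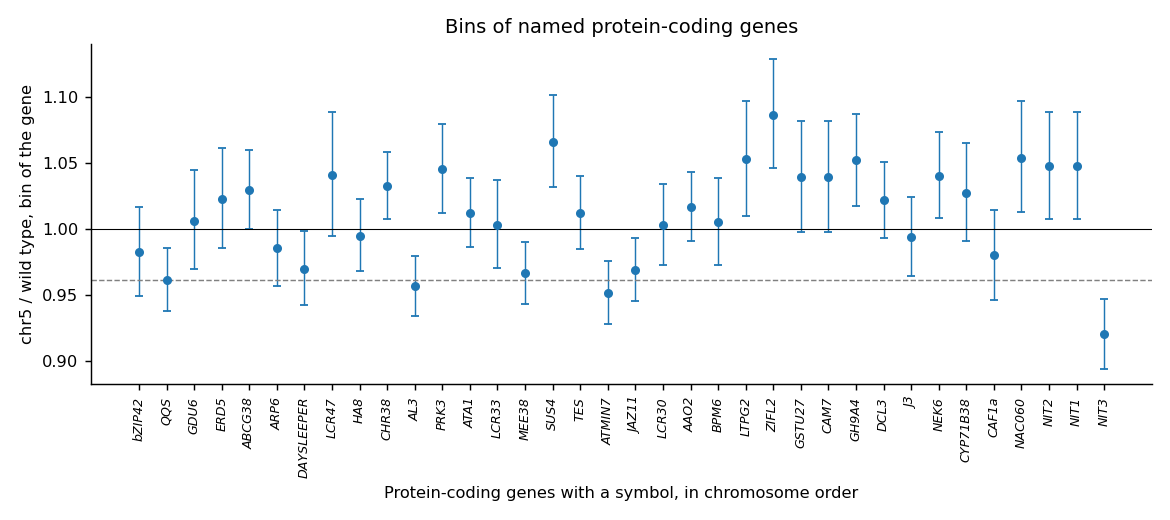
Fold of chr5 over wild type for the 10 kb bin of each of the 36 protein-coding genes with a symbol, in chromosome order; bars are exact 95% intervals for counting error. The solid line marks 1 and the dashed line the median bin of the region, 0.961. The folds lie between 0.920 (NIT3) and 1.09 (ZIFL2), and genes that share a bin have the same value.

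Genes of chromatin and RNA silencing lie in this region. CHR38 (AT3G42670), also called CLSY1, is a SNF2-family protein of RNA-directed DNA methylation, and its bin, 86.3% protein-coding, had 12513 wild-type against 13314 chr5 counts, at 1.03-fold (1.01 to 1.06). DCL3 (AT3G43920) cuts double-stranded RNA into the small RNAs of the same pathway. Its bin had 9416 and 9912 counts, at 1.02-fold (0.993 to 1.05). DAYSLEEPER (AT3G42170), a protein derived from a transposase, had 9047 and 9041 counts in its bin, a fold of 0.970 (0.942 to 0.999). CHR38 overlaps 2 bins, and its mean log2 ratio over both was 0.0018, against 0.046 in the bin of its midpoint. The median log2 ratio of CHR38, DCL3 and DAYSLEEPER was 0.031 by midpoint bin and 0.0018 over all bins of a gene. The bin of ARP6 (AT3G33520), a subunit of the complex that deposits the histone variant H2A.Z, lies within 0.1 Mb of the middle of the region. It had 9013 and 9150 counts, at 0.985-fold (0.957 to 1.01), and the bin after it was that of AT3G33235, at 0.847.

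Of the 8 metabolism and transport genes in 7 bins, 5 bins were above 0 and 2 below, with a median log2 ratio of 0.032. That median was 0.018 with the median nuclear bin set to 0 and 0.045 over all bins of a gene, and 38.6% of all analysed nuclear bins were below 0. Besides ZIFL2 and SUS4, the bin of NIT1 and NIT2 (AT3G44310 and AT3G44300), nitrilase genes, had 4930 wild-type against 5320 chr5 counts, at 1.05-fold (1.01 to 1.09). The bin of their relative NIT3 (AT3G44320) had 9499 and 9006 counts, at 0.920-fold (0.894 to 0.947). These 3 genes are close copies, so their counts may be shared by the placement of reads, which was not tested. The NIT3 bin is 33.5% pseudogene, and that of NIT1 and NIT2 has none. The bin of ERD5 (AT3G30775), the proline dehydrogenase gene, was at 1.02 (0.985 to 1.06), and that of AAO2 (AT3G43600), an aldehyde oxidase gene, at 1.02 (0.990 to 1.04). ERD5 overlaps 2 bins, and its mean log2 ratio over both was -0.016, against 0.032 in the bin of its midpoint. QQS (AT3G30720), an orphan gene that affects starch content, lies in a bin that is 49.8% pseudogene. That bin had 12255 and 12138 counts, at 0.961-fold (0.937 to 0.986), the same as the median bin of the region.

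The 4 genes of cell division, protein folding and RNA decay had a median log2 ratio of 0.0041, which turned to -0.011 when the median nuclear bin was set to 0. The bin of the kinase gene NEK6 (AT3G44200) was at 1.04 (1.01 to 1.07), and that of TES (AT3G43210), a kinesin of cytokinesis also called NACK2, at 1.01 (0.985 to 1.04). The bins of J3 (AT3G44110), a DnaJ co-chaperone, and of CAF1a (AT3G44260), a deadenylase, were at 0.994 (0.964 to 1.02) and 0.980 (0.946 to 1.01). J3 overlaps 2 bins, and its mean log2 ratio over both was 0.014, against -0.0090 in the bin of its midpoint. Among the other genes with a symbol, chosen after their values were seen, the bin of ATMIN7 (AT3G43300), which encodes a vesicle traffic regulator of immunity, was at 0.951 (0.928 to 0.976). That of AL3 (AT3G42790), a PHD-finger gene, was at 0.957 (0.934 to 0.980).

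**Figure D5:**
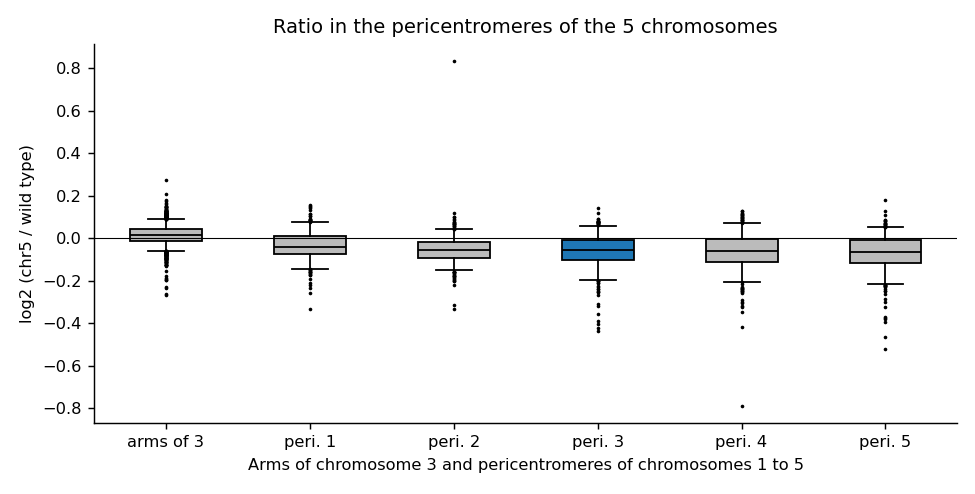
Log2 ratio of chr5 to wild type over the analysed 10 kb bins of the arms of chromosome 3 and of the pericentromeres of chromosomes 1 to 5, each 4 Mb wide; boxes span the quartiles with the median as a line, whiskers run from the 5th to the 95th percentile, and chromosome 3 is in blue. The pericentromere medians lie between -0.065 (chromosome 5) and -0.040 (chromosome 1), with chromosome 3 at -0.057.

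In the size of the shift, the pericentromere of chromosome 3 was in the middle of the 5. The medians for chromosomes 1, 2, 4 and 5 were -0.040, -0.056, -0.058 and -0.065, and chromosome 3 differed from the 4 together by -0.0048. With bins of 1 library per genotype, the differences among the 5 have no replicate check. At least 1.1-fold lower were 12.8% of its bins, against 6.29%, 8.01%, 17.5% and 19.8% on chromosomes 1, 2, 4 and 5. The highest wild-type level of a bin was 135 times the nuclear median here, against at most 11.6 in the other 4.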

How the data were processed

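Per the labels, both libraries are MNase-digested leaf chromatin. BWA 0.7.5a and bedtools are named in the submitters' processing notes, without their roles. The authors deposited whole-number counts per 10 kb bin, not normalized. Not given in the sources used here are the genome build and what was done with duplicates and multiply matching reads. Here, counts were scaled to each library's nuclear total, and 181 of 11916 bins were left out because their mean was below 0.25 times the nuclear median. Log2 ratios used a pseudocount of 1; folds of single bins used none, with exact conditional binomial 95% intervals.

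Genes came from a RefSeq table of assembly TAIR10.1 and were placed by midpoint; its coordinates are not printed. Because no build is named, placement was checked on the data: wild-type log2 counts, less a running median of 21 bins, correlated with protein-coding coverage in both arms of chromosome 3 (0.54 and 0.60) and with pseudogene coverage in the region (0.49), while shifts of 1 to 4 bins gave at most 0.18. The other 3 correlations were weaker: -0.13 for protein-coding coverage in the region, and 0.17 and 0.075 for pseudogene coverage in the arms, the last below the 0.113 (absolute value) reached by a shift. No genome sequence was used, so no sequence is shown. The other pericentromeres were bins within 2 Mb of 15, 3.6, 4 and 12 Mb on chromosomes 1, 2, 4 and 5.

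The members and gene lists were chosen with earlier results of these data known. Named were the very high bins, the 12 lowest and 12 highest bins by ratio with up to 2 genes each, and the gene lists; ARP6, AL3, ATMIN7 and single pairs and runs of bins were added after their values were seen. Scripts were tested on simulated counts. Alternatives were other scalings, filters, pseudocounts, thresholds, bin sizes, windows and placements of genes. Computations used scipy 1.17.1, numpy 2.4.6 and pandas 2.3.3 under Python 3.11.15, and plots matplotlib 3.10.9.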

Additional observations from a re-analysis of the deposited data

How the results depend on the processing

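With 1 library per genotype, nothing shows how far these values would vary between preparations; counting alone gives an SD of 0.022 over bins, against the 0.083 measured. The median log2 ratio of the region stayed below 0 in all 11 alternatives. It was -0.072 with the median nuclear bin set to 0, -0.064 in bins of 50 kb, -0.060 from 13 to 15 Mb, -0.033 from 11 to 17 Mb and -0.061 from 12 to 15.5 Mb, the last chosen after seeing the data. The difference from the arms was -0.076 in bins of 50 kb, -0.050 from 11 to 17 Mb and -0.077 from 12 to 15.5 Mb. Lower bins at 1.1-fold numbered 64 with the median bin at 0 (when 3.45% of all analysed nuclear bins were lower), and 8 of 80 bins of 50 kb (10.0%, against 1.27% of all analysed nuclear bins of 50 kb); at a change of 25% there were 5 and at 1.5-fold 0. Higher bins numbered 0 with the median bin at 0, in bins of 50 kb, up to 15.5 Mb, and at a change of 25% and at 1.5-fold. The median of the listed genes' bins was 0.027, at 0.012 with the median bin at 0 and 0.017 over all bins of a gene; that of the division list was -0.011 with the median bin at 0. The wild-type level was 1.32 over analysed bins only. With 1 limit at 50% protein-coding coverage, the region differed from the arms by -0.085 in gene-poor and 0.014 in gene-rich bins. Where values moved, the cause was not tested. No paired analysis was possible because each genotype has 1 library.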

Other observations

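The RNA genes outside the rRNA locus lay in bins of ordinary count. Of the 3 annotated miRNA genes of the region, MIR5642a shares the very high bin of AT3G41768, so its count cannot be read as its own. The bin of MIR5645c (AT3G06445) gave 11790 wild-type against 11838 chr5 counts, at 0.974-fold (0.950 to 0.9997). For MIR5638a (AT3G06595) the counts were 6205 and 6453, at 1.009-fold (0.975 to 1.05). The 54 lncRNA genes fell in 47 analysed bins with a median log2 ratio of -0.0074, of which 6 (12.8%, as among all analysed bins of the region) were at least 1.1-fold lower and 0 higher.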
